A study of Gloeophyllum trabeum with 9 samples.

Results

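The transcriptome of *Gloeophyllum trabeum* grown on whole wood was set against that of the fungus grown on cellulose alone. Both groups were mycelium of strain NBRC6430, harvested after 5 days of submerged culture in shaken flasks with a single carbon source, which was wood flour of Japanese cedar in 3 libraries and microcrystalline cellulose in the other 3. Both substrates had been nanofibrillated and were supplied in the same iron-containing medium, and the mycelium formed balls, so neither group models growth through solid wood. These are 6 of the 9 libraries of the series. The remaining 3, from glucose cultures of 3 days, entered no test here except 1 alternative fit, and their values are given beside 3 genes. All 11846 gene models of the deposited table were taken into account, and 10503 of them passed the filter on low values, which asked that no fewer than 3 of the 6 libraries reach 0.1 TPM.

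*G. trabeum* is a brown rot fungus of conifer wood. Such fungi take the cellulose and hemicellulose out of wood and leave a modified lignin behind, first with hydroxyl radicals made from iron and hydrogen peroxide (Fenton chemistry) and then with a small set of hydrolytic enzymes. Conifer wood holds, besides cellulose, glucomannan, xylan, pectin, lignin and extractives such as terpenoids and phenols, whereas the cellulose cultures were offered a single polymer. The fungus takes up the sugars released through transporters of the major facilitator superfamily (MFS), and cytochrome P450 monooxygenases are known for oxidizing small hydrophobic and aromatic molecules.

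Values are TPM, transcript abundances corrected for transcript length, that the authors normalized between libraries with Sleuth. On this scale the columns do not have a common total. They summed to 897703, 709862 and 899473 TPM on cedar, against 1574621, 1671746 and 1680448 TPM on cellulose. The 10 most abundant gene models took 49.0 to 56.0% of the total on cedar and 57.2 to 65.0% on cellulose. The median gene model was at 9.34 to 9.68 TPM on cedar and at 8.16 to 8.58 TPM on cellulose. On the deposited scale the middle of the distribution was thus nearly level between the substrates, and the totals were not. All values below keep the deposited scaling unless another is named. With every library set to the same total, all log2 fold changes of cedar over cellulose move upward, and their median over the tested gene models goes to 0.92, against 0.05 as deposited. Reads per gene model were not used here, so the depth behind a single value is unknown. The precision comes from the spread between 3 libraries per substrate, which limma moderates toward the spread of gene models at a similar level. In bulk RNA, fewer cells that make a transcript and less of it per cell cannot be told apart.

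Of the 10503 gene models tested, 1124 were higher on cedar than on cellulose and 625 were lower. A gene model was called at a Benjamini-Hochberg adjusted p under 0.01 in limma's moderated test on log2(TPM + 0.5), when its mean TPM also differed by a ratio of 2 or more, or of 0.5 or less. The calls are 10.7% of the tested gene models for the higher and 5.95% for the lower direction, and these shares are the background for the gene families below. In every called gene model the 3 cedar values lay wholly above or wholly below the 3 cellulose values, which was so in 57.3% of all tested gene models. The median ratio was 3.23 in the higher group, and 48 of its members were at least 10-fold up. In the lower group the median difference was 2.74-fold, and 47 members were at least 10-fold down. Among the higher ones 17, and among the lower ones 1, were at or near 0 (under 0.01 TPM) in all 3 libraries of the other substrate. Many calls are lost when 1 library is left out. Without cedar replicate 3, 294 of the 1124 higher and 143 of the 625 lower calls were kept, and without cedar replicate 1, 394 and 207. The lost calls of single genes below are to be read beside these shares.

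The direction followed the transcript level. Gene models called higher on cedar were rare transcripts, with a median of 7.25 TPM on cedar and 2.17 TPM on cellulose. Those called lower were more abundant, with a median of 24.1 TPM on cedar and 69.8 TPM on cellulose. Among the 1185 gene models with a mean of 1 to 3 TPM over the 6 libraries, the median log2 fold change was 0.61 and 296 were called higher, against 18 called lower. Among the 756 with a mean of 100 to 1000 TPM the median was −0.69, with 15 called higher and 182 lower. Over 1000 TPM it was −1.06, with 1 higher and 22 lower of 79. Since any family of rare or of abundant transcripts shares in this drift, the counts below are also given after a cyclic loess normalization, which brings the medians of these ranges near 0 and was added after the drift was seen. That normalization left 699 higher and 584 lower calls, of which 604 and 350 were among those of the deposited scaling. What set the drift was not tested.

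**Figure D1:**
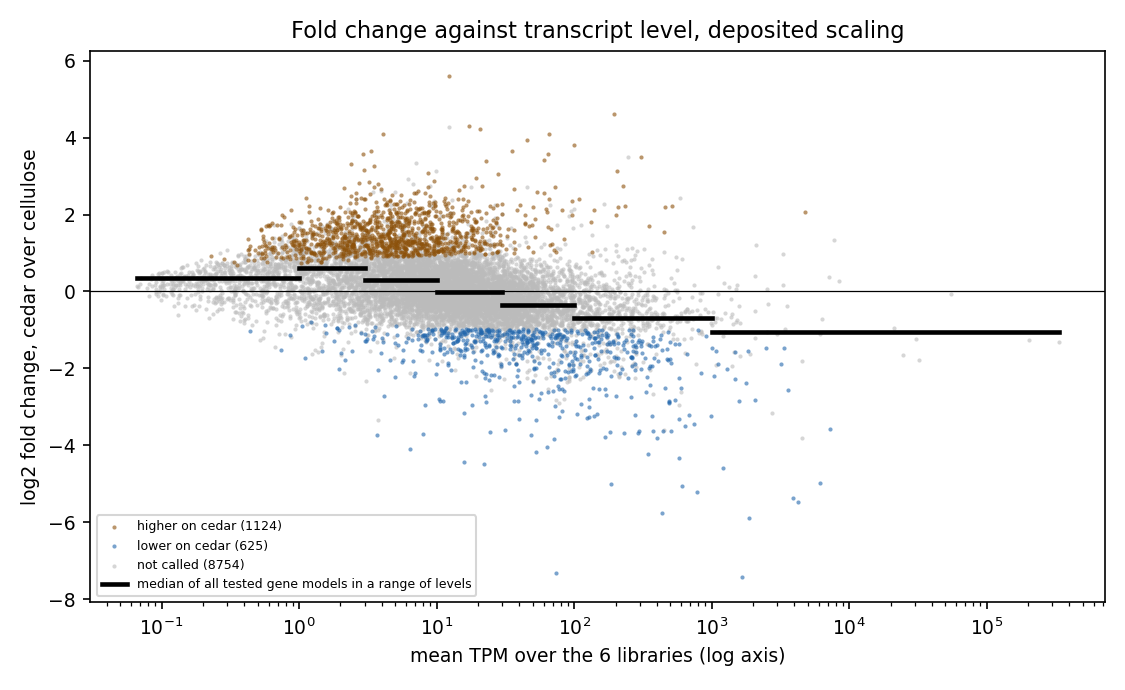
Log2 fold change of cedar over cellulose against the mean TPM over the 6 libraries (log axis) for the 10503 gene models tested, one point each, with those called higher on cedar (1124), called lower (625) and not called in separate colours. Black bars are medians within 7 ranges of the level, and they step down from 0.61 at 1 to 3 TPM to −1.06 above 1000 TPM.

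The largest fitted log2 fold change, on the log2(TPM + 0.5) scale, was in Glotr_42369, oxaloacetate acetylhydrolase (OAH), which splits oxaloacetate into oxalate and acetate. It stood at 16.6, 13.6 and 23.04 TPM on cedar, against 3351, 4631 and 1877 TPM on cellulose. The highest cedar library was 81.4-fold below the lowest cellulose library, and the ratio of the means was 185-fold lower on cedar (log2 fold change −7.43, standard error 0.36, adjusted p = 0.000225). The call held whichever library was left out.

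The other 9 of the 10 largest falls were in 1 dehydrogenase, 2 endoglucanases and 6 gene models for which no name is held. Glotr_46670 is a class V alcohol dehydrogenase that the study lists among its genes most upregulated on cellulose. It was listed at 0.000972, 0 and 0 TPM on cedar, against 339.9, 17.3 and 84.6 TPM on cellulose, where the highest library was 19.6-fold above the lowest. Its call was lost without cedar replicate 1 or 3 (−7.33 to −7.32). Glotr_138821 and Glotr_63180, both endoglucanases, are described with their families. Glotr_132559 had 16.2, 10.999 and 14.8 TPM on cedar, against 1210.1, 948 and 405 TPM on cellulose (61.1-fold lower). Glotr_130577, which lies beside a hydrophobin gene, had 211, 109.9 and 238 TPM on cedar, against 10224, 7346 and 5099 TPM on cellulose (40.5-fold lower). Neither pair of groups came near to overlapping. Glotr_102744, Glotr_133444, Glotr_111144 and Glotr_126546 were lower by 38.2, 33.96, 39.4 and 37.1 times. Glotr_126546 had 273, 356 and 334 TPM on cedar, against 20319, 10727 and 4678 TPM on cellulose. The calls of these 6 unnamed gene models held whichever library was left out.

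Among the largest rises on cedar, Glotr_122499 is an MFS transporter, a class of membrane proteins that carry sugars and other small molecules. It had 356, 376 and 389 TPM on cedar, against 11.6, 13.9 and 19.7 TPM on cellulose, 24.8-fold higher on cedar (log2 fold change 4.62, standard error 0.20, adjusted p = 0.000168). The highest cedar library was only 1.09-fold above the lowest, and the groups lay far apart. Glotr_34963, a mitochondrial protein of the large ribosomal subunit (L22), had 20.9, 33.6 and 19.3 TPM on cedar and was at or near 0 in every cellulose library, so no fold is given. Glotr_39806, a hypothetical protein, had 9.56, 6.79 and 8.13 TPM on cedar and was listed at 0 on cellulose. Glotr_35605 is named as a P-type ATPase that moves aminophospholipids across membranes, while its second annotation is the alpha subunit of a Na+/K+ ATPase. It had 99.2, 58.2 and 97.7 TPM on cedar, against 7.404, 4.69 and 3.44 TPM on cellulose (16.4-fold higher). Glotr_140036, a cytochrome P450, had 69.3, 56.6 and 71.5 TPM on cedar, against 4.204, 5.76 and 4.39 TPM on cellulose (13.7-fold higher). Each of these 5 genes kept its call with any single library left out. The other 5 of the 10 largest rises, Glotr_136555, Glotr_49072, Glotr_77843, Glotr_124193 and Glotr_103260, have no name held, and were higher by 27.5, 21.3, 17.1, 14.1 and 92.3 times. Glotr_103260 was near 0 on cellulose, at 0.0835, 0 and 0.132 TPM, so its ratio rests on very small values.

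Genes for breaking down cellulose and hemicellulose were called lower on cedar more often than higher. The study lists 30 of them, of which 12 were called lower and 2 higher, and their median log2 fold change was −1.69, against 0.05 over all gene models tested. All 30 passed the filter. With the same total in each library 8 were called lower and 8 higher and the median was −0.71, and after cyclic loess 7 were lower, 0 higher, with a median of −1.16. The 2 rises were in rare transcripts, Glotr_103762 and Glotr_49308. Of the 14 calls, 6 were kept whichever library was left out. Cedar replicate 2 was the lowest of the cedar libraries in 25 of the 30 genes, against 46.5% of all gene models tested, and cellulose replicate 3 was the lowest of the cellulose libraries in 19, against 37.2%. Without cedar replicate 2 the list had 9 lower and 1 higher, and without cellulose replicate 3 it had 15 lower and 3 higher. Without cedar replicate 1 or 3 it had 6 lower and 0 higher, and without cellulose replicate 1 or 2 it had 7 and 1. What set these libraries apart was not tested.

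Endoglucanases cut cellulose chains within their length. The GH5_5 enzyme Glotr_63180 had 303, 31.2 and 404 TPM on cedar, against 8657, 13123 and 3057 TPM on cellulose. The highest cedar value was 7.56-fold below the lowest cellulose value, while within a substrate the libraries spread 12.98-fold on cedar and 4.29-fold on cellulose. Its mean was 33.7-fold lower on cedar (log2 fold change −5.48, standard error 1.03, adjusted p = 0.00681). The call was lost without cedar replicate 1 or 3, or cellulose replicate 1 or 2 (−6.17 to −5.03) and after cyclic loess. The second GH5_5 gene, Glotr_57704, had 124, 31.2 and 136 TPM on cedar, against 676, 1074 and 191 TPM on cellulose, and did not pass the test (adjusted p = 0.0324), although the groups did not overlap. The GH12 gene Glotr_138821 had 75.03, 21.3 and 90.5 TPM on cedar, against 4871, 4904 and 1319 TPM on cellulose, 59.4-fold lower, and this call was kept without any 1 library and after cyclic loess. The other GH12 gene, Glotr_62344, was at 1.48, 0.664 and 2.11 TPM on cedar and 0.596, 0.368 and 0.0862 TPM on cellulose, a 4.05-fold higher mean at a very low level, and not called (adjusted p = 0.0391).

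Lytic polysaccharide monooxygenases of family AA9 cut crystalline polysaccharides by oxidation, and 1 of the 4 genes was called, none after cyclic loess. Glotr_63531 had 1077, 119 and 1200.5 TPM on cedar, against 7971, 12876 and 4214 TPM on cellulose. Its mean was 10.5-fold lower on cedar without passing the test (adjusted p = 0.0169), and it was not called with any 1 library left out. Cedar replicate 2 lay far under the other cedar libraries. Glotr_69702 was about level, with 59.999, 41.6 and 55.1 TPM on cedar and 42.2, 42.9 and 48.9 TPM on cellulose. The low-level Glotr_103762 was called higher, with 2.25, 1.99 and 2.36 TPM on cedar, against 0.5, 0.551 and 0.901 TPM on cellulose (3.38-fold), but not without cedar replicate 1 or 3 (1.20 to 1.23) or after cyclic loess. The GH131 β-glucanase Glotr_106470 had 169.5, 30.1 and 176 TPM on cedar and 634, 595 and 71.8 TPM on cellulose, where replicate 3 fell inside the cedar range, and it was not called.

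β-Glucosidases finish the hydrolysis of cellulose by releasing glucose from short oligosaccharides. In family GH3, 6 of 10 genes were called lower and 0 higher, with a median log2 fold change of −1.58. With the same total, 3 were lower and 1, Glotr_69843, was higher, and after cyclic loess 3 were lower. The most abundant GH3 gene, Glotr_72986, had 225, 178 and 241 TPM on cedar, against 855, 783 and 543 TPM on cellulose (3.39-fold lower), and its call was lost without cedar replicate 1 or 3 (−1.83 to −1.78). Glotr_141438 had 147, 149.7 and 164 TPM on cedar, against 414, 453 and 543 TPM on cellulose (3.06-fold lower). In this gene the replicates were close together on both substrates, unlike the endoglucanases. Glotr_54923, Glotr_122002 and Glotr_75899 were lower by 4.795, 5.08 and 4.08 times. These 3 calls and that of Glotr_141438 were kept without any 1 library, and the calls of Glotr_54923, Glotr_122002 and Glotr_75899 also with the same total.

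The 5 GH1 genes went both ways. Glotr_141319 had 26.5, 16.3 and 29.6 TPM on cedar, against 234, 267 and 195 TPM on cellulose, 9.59-fold lower, a call kept without any 1 library and with the same total. Glotr_81012 had 16.02, 7.59 and 15.8 TPM on cedar, against 179, 188 and 56.6 TPM on cellulose (10.7-fold lower), lost without cedar replicate 1, 2 or 3, or cellulose replicate 1 or 2 (−3.44 to −2.92). Glotr_49308 was called higher, at 4.59, 4.97 and 5.22 TPM on cedar and 1.28, 1.43 and 2.41 TPM on cellulose (2.89-fold), lost without cedar replicate 1, 2 or 3, or cellulose replicate 1 or 2 (1.19 to 1.38). The pair with less transcript on wood was abundant on cellulose, and the member with more was rare on both.

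Among the enzymes of hemicellulose breakdown, 1 of 3 GH10 xylanases and 1 of 2 GH5_7 mannanases were called lower and 0 higher, and after cyclic loess 1 xylanase and 0 mannanases were. The GH10 xylanase Glotr_46499 had 128, 27.99 and 163 TPM on cedar, against 2789, 3279 and 893 TPM on cellulose, 21.8-fold lower, and the call was lost without cedar replicate 1 or 3, or cellulose replicate 1 or 2 (−5.06 to −4.23). The xylanase Glotr_140289 had 191, 23.2 and 199 TPM on cedar and 1272, 1605 and 201 TPM on cellulose and was not called (adjusted p = 0.0639). Cedar replicate 2 was again the lowest and cellulose replicate 3 came down to the level of the other cedar libraries. The third, Glotr_138785, was rare, at 2.05, 2.51 and 2.603 TPM on cedar and 2.104, 2.01 and 0.803 TPM on cellulose, and overlapped. It was not called, and was called higher at equal totals. The GH5_7 mannanase Glotr_135369, whose substrate is the main hemicellulose of conifers, had 61.1, 39.01 and 69.6 TPM on cedar, against 213, 240.4 and 143 TPM on cellulose (3.51-fold lower), lost without cedar replicate 1, 2 or 3, or cellulose replicate 1 or 2 (−1.98 to −1.57). At equal totals this mannanase was no longer called either. The second mannanase, Glotr_110405, and the CE1 esterase Glotr_117128, which removes acyl side groups from hemicellulose, had lower means on cedar (6.34 and 4.51 times) and did not pass the test (adjusted p = 0.0421 and 0.0352).

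**Figure D2:**
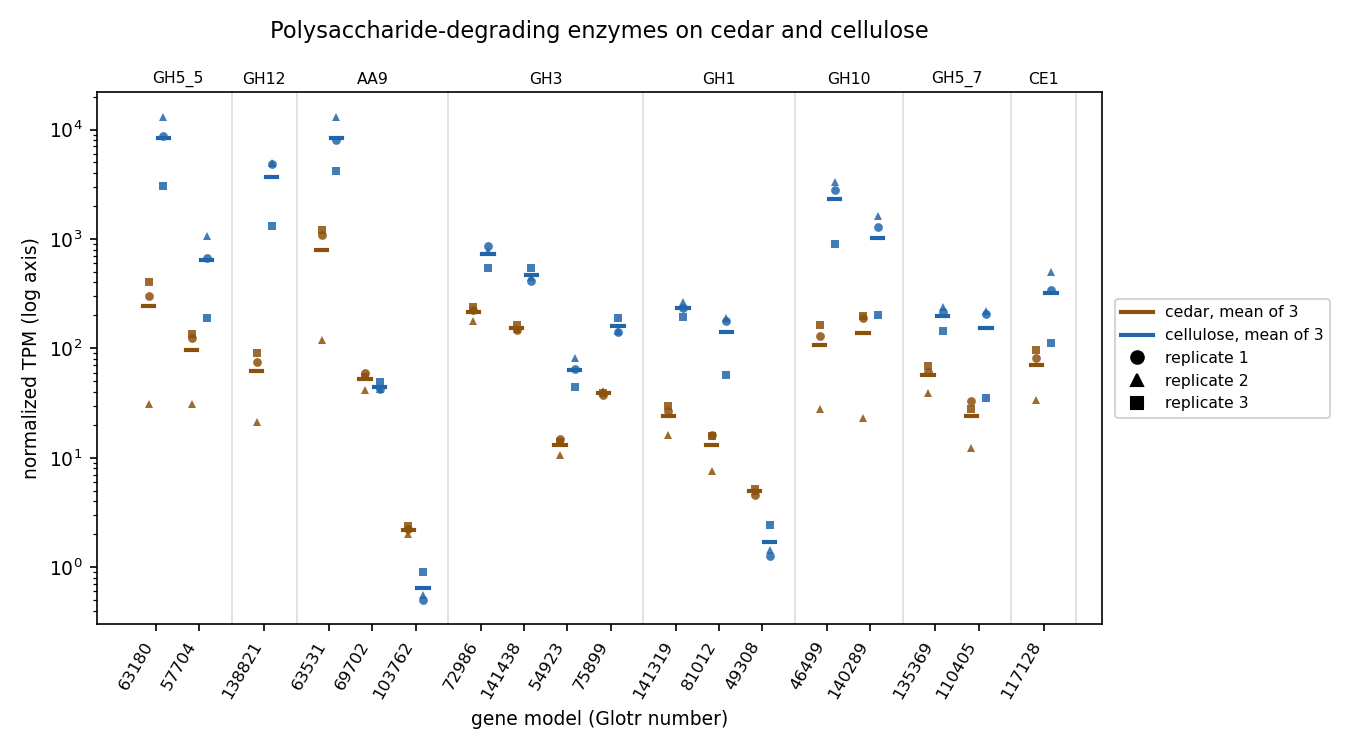
Normalized TPM (log axis) of 18 genes of polysaccharide breakdown, grouped by enzyme family, with cedar left of cellulose for each gene, the symbols standing for replicates 1 to 3 and the short bars for the mean. Glotr_63180 was at 31.2 to 404 TPM on cedar and at 3057 TPM or more on cellulose, and cedar replicate 2 (triangle) lies under the other cedar libraries in most of these genes.

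Pectin-degrading enzymes, which act on the middle lamella and pit membranes of wood, gave 1 call on the deposited scale. Of 10 GH28 polygalacturonases, 1 was higher and 0 lower on cedar (median log2 fold change 0.48), and neither of the CE8 pectin methylesterases was called. The called one, Glotr_6650, had 2.92, 2.17 and 2.56 TPM on cedar, against 0.709, 0.84 and 0.773 TPM on cellulose (3.29-fold), and lost its call without cedar replicate 1 or 3 (1.17 to 1.25). Glotr_117232, the most abundant GH28 gene, had 23.8, 20.5 and 23.1 TPM on cedar and 20.6, 17.1 and 6.73 TPM on cellulose, ranges that overlap only at 20.5 and 20.6 TPM, with no call. At equal totals 7 of the 10 GH28 genes and both CE8 genes were called higher, and after cyclic loess 1 GH28 gene was higher and 1 lower. After quantile normalization 0 GH28 genes were higher and 2 lower, so the calls depend on the scaling. The medians of both families were above 0 under each scaling, with the lowest at 0.06 for GH28 and 0.64 for CE8, both after quantile normalization. GH28 transcripts were mostly rare, with a median over the 10 genes of 2.33 TPM on cedar and 0.87 TPM on cellulose. All gene models with a mean of 1 to 3 TPM had a median log2 fold change of 0.61 as deposited and 0.10 after cyclic loess. The GH28 medians of 0.48 and 0.09 were thus not above those of this range.

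Oxalate binds iron and carries it away from the hypha in the Fenton system of brown rot. Of the 3 listed enzymes of its synthesis, OAH and a pair of glyoxylate dehydrogenases, which oxidize glyoxylate to oxalate, 2 were called lower on cedar and 0 higher, and after cyclic loess OAH alone was. The dehydrogenase Glotr_61065 had 16.3, 17.1 and 16.2 TPM on cedar, against 31.99, 38.2 and 33.3 TPM on cellulose (2.09-fold lower), with tight replicates, and it lost its call without cedar replicate 1 or 3, or cellulose replicate 2 (−1.03 to −0.96) and with the same total. Glotr_54623 was at 43.1, 37.01 and 44.7 TPM on cedar and 33.5, 36.2 and 39.1 TPM on cellulose, overlapping and not called. In the glucose cultures OAH stood at 542, 679 and 501 TPM, between the other substrates.

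Iron-reducing glycopeptides (GLPs) are small secreted glycoproteins that reduce ferric iron. Of 4 genes, 1 was called lower and 0 higher, with a median log2 fold change of −1.19 (−0.21 with the same total and −0.25 after cyclic loess, both with no call). Glotr_58158 was the called one, at 222, 179 and 229.9 TPM on cedar, against 673, 521 and 504 TPM on cellulose (2.69-fold lower), lost without cedar replicate 1 or 3 (−1.49 to −1.46). Glotr_101715 was very abundant on both, with 14874, 11474 and 13307 TPM on cedar and 52234, 17111 and 18593 TPM on cellulose. The groups did not overlap, cellulose replicate 1 stood far above the rest, and the test was not passed. Glotr_132851 had 362, 471 and 392 TPM on cedar, against 3934, 1225 and 9979 TPM on cellulose, not overlapping, with a mean 12.3-fold lower and an adjusted p of 0.0123. Glotr_104526 had 115, 579.9 and 137 TPM on cedar and 127, 33.4 and 432 TPM on cellulose, with cedar replicate 2 and cellulose replicate 3 high, the same libraries that were low in the endoglucanases.

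Oxidases that can supply hydrogen peroxide were called in both directions, to be read beside 10.7% higher and 5.95% lower over all gene models tested. Of 16 genes of families AA3, AA4 and AA5 that the study lists, 1 was higher and 2 were lower, and the median log2 fold change was −0.31 (0.54 with the same total, where 7 were higher and 1 lower, and −0.21 after cyclic loess, with 1 and 1). The AA3_2 and AA4 members are genes that the study lists as upregulated over glucose on cellulose or cedar in these same libraries. Their directions are therefore not independent evidence. Without cellulose replicate 3 there were 2 higher and 4 lower, and without cedar replicate 3 there were 1 and 1. The AA3_3 alcohol oxidase Glotr_139980 was among the abundant transcripts on both substrates, at 8979, 9744 and 8781 TPM on cedar and 8348, 6697 and 7825 TPM on cellulose. The groups did not overlap, but the means differed only 1.203-fold on the deposited scale (adjusted p = 0.541). With the same total Glotr_139980 was called higher (log2 fold change 1.25), and after cyclic loess its log2 fold change was 1.36 with no call. The AA3_2 gene Glotr_80540 had 10.3, 6.91 and 9.97 TPM on cedar, against 62.04, 82.5 and 60.7 TPM on cellulose, 7.54-fold lower, kept without any 1 library and with the same total. The AA5_1 copper-radical oxidase Glotr_65654 had 147, 132 and 143 TPM on cedar, against 343, 331 and 339 TPM on cellulose (2.396-fold lower). This call was lost without cedar replicate 3 (−1.27) and with the same total.

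Vanillyl-alcohol oxidases act on phenols with a side chain of the lignin type, and a pair of genes with this annotation moved apart. Glotr_82071, of family AA4, had 15.3, 13.4 and 17.6 TPM on cedar, against 1.51, 2.39 and 1.88 TPM on cellulose, 8.02-fold higher (log2 fold change 2.72, standard error 0.18, adjusted p = 0.000521). Glotr_43196, named vanillyl-alcohol oxidase in the annotation and found through the word lists, had 25.9, 25.5 and 25.6 TPM on cedar, against 69.9, 108 and 142 TPM on cellulose, 4.15-fold lower (log2 fold change −1.97, standard error 0.25, adjusted p = 0.00194). The first call held without any 1 library, with the same total and after cyclic loess. The second held with the same total and after cyclic loess, and was lost without cedar replicate 1 or 3 (−1.98 to −1.97). In glucose cultures Glotr_82071 was at 0.096, 0.0238 and 0.037 TPM and Glotr_43196 at 59.2, 91.7 and 49.2 TPM.

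Laccases (AA1_1) oxidize phenols with copper. Of the 4 genes, 3 were higher on cedar and 0 lower, each at a low level. Glotr_127593 (Gtlcc3) had 9.15, 6.41 and 9.8003 TPM on cedar, against 2.47, 4.32 and 3.16 TPM on cellulose. Glotr_43770 (named laccase hybrid) had 4.47, 5.14 and 3.97 TPM on cedar, against 1.45, 2.11 and 1.66 TPM on cellulose. Glotr_107459 had 2.72, 1.82 and 2.38 TPM on cedar, against 0.605, 0.665 and 0.778 TPM on cellulose. The 3 genes were higher by 2.55, 2.601 and 3.37 times, and Glotr_127593 lost its call without cedar replicate 1, 2 or 3, or cellulose replicate 1 or 3 (1.07 to 1.41), Glotr_43770 without cedar replicate 1, 2 or 3 (1.08 to 1.25) and Glotr_107459 without cedar replicate 1 or 3 (1.13 to 1.21). None of the 3 was called after cyclic loess, where the family's median was 0.70. The fourth gene, Glotr_130426 (Gtlcc2), was the most abundant laccase on cellulose, at 6.99, 17.8 and 8.24 TPM on cedar and 26.4, 10.9 and 15.3 TPM on cellulose, and overlapped. The 3 AA6 benzoquinone reductases reduce quinones. Earlier work proposed a part for them in the Fenton system, which the paper regards as not strong in this fungus. They had no call, and at equal totals Glotr_82342 and Glotr_101783 were called higher.

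Cytochrome P450 genes gave the most rises of the lists described here. Of 35 P450 genes that the study lists, 13 were called higher on cedar and 0 lower, with a median log2 fold change of 0.84. The study drew that list from these libraries, by responses to cedar or cellulose, so its direction is not independent evidence. A list built from names alone holds 28 P450 genes, 25 of which passed the filter, and 9 of these were higher and 0 lower (median 0.64). It shares members with the study's list, among them Glotr_44705, Glotr_45946 and Glotr_46298, all called higher, so its counts are not independent of that list. The name lists cover only the 1398 tested gene models with a name held, of which 12.4% were higher and 4.94% lower. After cyclic loess 12 of the 35 and 6 of the 25 were higher and 0 lower. Of the 13 calls of the study's list, 8 were kept whichever library was left out, and the count was lowest, at 8, without cedar replicate 3. Of the 9 by name, 2 were kept, and the count was 4 without cedar replicate 1 or 2, 3 without cedar replicate 3 and 6 without cellulose replicate 1. Glotr_63933 had 59.7, 56.4 and 72.3 TPM on cedar, against 9.996, 16.6 and 16.4 TPM on cellulose (4.38-fold higher). Glotr_124807 had 33.2, 24.1 and 34.2 TPM on cedar, against 8.75, 9.71 and 6.53 TPM on cellulose (3.66-fold higher). Glotr_116311 was low but even, at 4.41, 3.83 and 4.36 TPM on cedar, against 0.652, 0.685 and 0.569 TPM on cellulose (6.61-fold higher). These 3 and Glotr_140036 were all clear of overlap and kept their calls. The most abundant members were not called. Glotr_140224 had 493, 541 and 554 TPM on cedar and 733, 608 and 1458 TPM on cellulose, and Glotr_48505 had 538, 80.2 and 388 TPM on cedar and 589, 709 and 58.4 TPM on cellulose, with the same low libraries as the endoglucanases.

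Transporters of the MFS were called in both directions. By name, 12 of 35 tested MFS and sugar transporters (38 in all) were higher and 1 was lower (median log2 fold change 0.60), and 9 and 1 after cyclic loess. With 1 library left out, 3 to 12 were higher, with 5 without cedar replicate 1 and 3 without cedar replicate 3. Of the 6 that the study lists for their response to the substrates, 1 was higher and 2 were lower. At equal totals 4 were higher and 1 lower, after cyclic loess 3 were higher and 0 lower, and after quantile normalization 4 and 0, so the balance of this list depends on the scaling. With 1 library left out, 0 to 2 were lower, with 0 without cedar replicate 1 or 3. Beside Glotr_122499, the higher one, Glotr_77119 had 582, 374 and 604 TPM on cedar, against 1843, 2404 and 1988 TPM on cellulose (3.998-fold lower), and Glotr_117176 had 26.2, 11.6 and 27.4 TPM on cedar, against 142, 199 and 62.6 TPM on cellulose (6.199-fold lower). Glotr_77119 lost its call without cedar replicate 1 or 3 (−2.15 to −2.12) and Glotr_117176 without cedar replicate 1, 2 or 3, or cellulose replicate 1 or 2 (−2.76 to −2.16). The abundant Glotr_139707 had 374, 518 and 410.2 TPM on cedar and 163, 152 and 321 TPM on cellulose, and Glotr_125226 had 342, 249 and 391 TPM on cedar and 198, 196 and 83.9 TPM on cellulose, in each case with no overlap, a 2.05-fold or 2.06-fold higher mean and no call.

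Other lists of small-molecule metabolism were divided. All 4 O-methyltransferases by name were called higher on cedar, and with 1 library left out 1 to 4 were, with 2 without cedar replicate 1 and 1 without cedar replicate 3. They were led by Glotr_37284 with 4.03, 5.37 and 4.32 TPM on cedar, against 0.924, 0.934 and 1.18 TPM on cellulose (4.52-fold), whose call held without any 1 library. These enzymes transfer a methyl group to a hydroxyl group, often of a phenol. The 4 are rare transcripts, and after cyclic loess 2 were higher. Among 17 FAD-dependent oxidoreductases and monooxygenases, 5 were higher and 1 lower (3 and 1 after cyclic loess, and 1 and 0 without cedar replicate 1 or 3), and Glotr_30301 led them with 14.4, 19.95 and 16.99 TPM on cedar, against 1.92, 2.37 and 1.45 TPM on cellulose (8.96-fold). Among 12 tested NAD(P)-binding and short-chain dehydrogenases (14 in all), 4 were higher and 2 lower (3 and 0 after cyclic loess). Without cedar replicate 3, 0 of these 12 were called, without cedar replicate 1 there were 1 higher and 0 lower, without cedar replicate 2 there were 1 and 1, and without cellulose replicate 1 there were 2 and 1. Of 9 aldo/keto reductases, 0 were higher and 1 was lower (median log2 fold change −0.28, with no call after cyclic loess). Of 9 tested enzymes acting on aromatic rings (10 in all), 1 was higher and 1 lower (1 and 2 after cyclic loess), and neither of the 2 tested glutathione S-transferases was called (1 higher after cyclic loess). Of 5 dehydrogenases among the genes that the study lists as most upregulated on cellulose or cedar, 1 was higher and 1, Glotr_46670, was lower, as after cyclic loess. These 5 were selected by their response in these same libraries, so their directions are not independent evidence. The higher one, Glotr_73346, had 102, 97.95 and 108 TPM on cedar, against 22.6, 25.7 and 20.9 TPM on cellulose (4.45-fold higher), a call that no left-out library removed. Glotr_137467 had 291, 703 and 317 TPM on cedar and 42.4, 9.09 and 112 TPM on cellulose. Its mean was 7.99-fold higher on cedar and no libraries overlapped, but the cellulose libraries spanned 9.09 to 112 TPM, with an adjusted p of 0.0177.

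**Figure D3:**
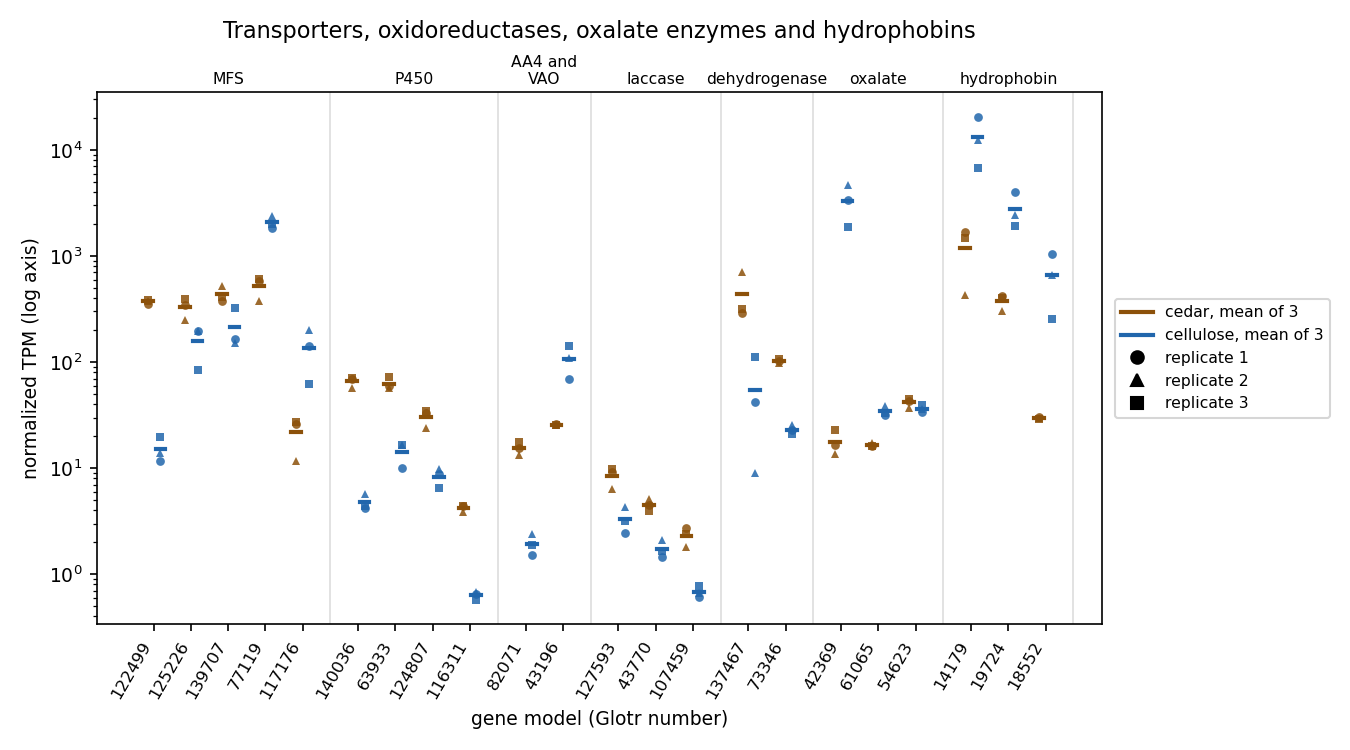
Normalized TPM (log axis) of 22 genes for transport, oxidation, oxalate synthesis and hydrophobins, cedar left of cellulose for each gene, with symbols for replicates 1 to 3 and short bars for the means (VAO, vanillyl-alcohol oxidase). The MFS transporter Glotr_122499, the P450 genes and Glotr_82071 lie higher on cedar, and the oxalate enzyme Glotr_42369 and the 3 hydrophobins lie lower.

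Hydrophobins, small secreted proteins that coat hyphae and let them adhere to surfaces, went both ways. Of 8 named genes, 3 were lower and 1 higher, and the lower ones were the abundant ones. Glotr_14179 had 1669, 429.9 and 1471 TPM on cedar, against 20644, 12549.8 and 6796 TPM on cellulose (11.2-fold lower). Glotr_19724 had 418, 306 and 405 TPM on cedar, against 3987, 2463 and 1927 TPM on cellulose (7.42-fold lower). Glotr_18552 was nearly constant on cedar, at 30.3, 29.5 and 29.3 TPM, against 1051, 660.3 and 255 TPM on cellulose (22.1-fold lower). The calls of Glotr_14179 and Glotr_19724 were lost without cedar replicate 1, 2 or 3, or cellulose replicate 1 or 2 (−3.92 to −2.95) and without cedar replicate 3 (−2.89), and that of Glotr_18552 was kept. Glotr_13015, the one higher on cedar, had 12.2, 9.22 and 12.9 TPM on cedar, against 2.16, 2.43 and 2.77 TPM on cellulose (4.67-fold). At equal totals 3 hydrophobins were lower and 3 higher, and after cyclic loess 2 were lower and 1 higher. Without cedar replicate 3 there was 1 lower.

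Genes of secondary metabolism were also called in both directions, with the same shares of 10.7% and 5.95% over all gene models as background. Of 4 polyketide synthases in the study's list 1 was lower, Glotr_116317 (pks1 in RefSeq), with 3.58, 2.92 and 3.17 TPM on cedar, against 10.8, 18.7 and 20.5 TPM on cellulose (5.17-fold lower), lost without cedar replicate 3 (−2.15). A further gene model with the name polyketide synthase, Glotr_15151, was picked out after its values were seen. It had 65.9999, 64.8 and 83.7 TPM on cedar, against 712, 1442 and 658 TPM on cellulose, 13.1-fold lower, and kept its call whichever library was left out. Of 10 terpene synthases, 1 was higher and 0 lower, with a median of −0.71 (0.21 with the same total), and after cyclic loess 0 were higher and 1 lower. The higher one, Glotr_47645, had 3.76, 2.91 and 3.82 TPM on cedar, against 0.72, 1.53 and 1.17 TPM on cellulose (3.07-fold), lost without cedar replicate 1, 2 or 3 (1.25 to 1.42). Glotr_103889, the most abundant, had 1222, 255 and 939 TPM on cedar and 2508, 2083 and 512 TPM on cellulose, and overlapped. Glotr_64172 and Glotr_117331 each had 1 library apart from the rest, cellulose replicate 3, with 45.7, 67.1 and 457 and 90.9, 61.3 and 632 TPM in the 3 cellulose libraries, against 33.9, 25.7 and 35.8 and 54.4, 46.2 and 48.8 TPM in the 3 cedar libraries.

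Among housekeeping groups, the histones were level. Of 13 histones, 0 were called in either direction and the median log2 fold change was 0.01, so the deposited scaling put histone transcripts level between the substrates. At equal totals their median was 0.97 and 4 were called higher, and after cyclic loess 0 were called. Of 21 ribosomal proteins, 2 were higher and 1 lower (median −0.37), and 2 and 0 after cyclic loess. At equal totals 4 were higher and 1 lower, with a median of 0.61. Without cellulose replicate 3, 5 of them were lower. One of the 2 that were higher as deposited was the mitochondrial Glotr_34963. The one lower as deposited was Glotr_6576, with 270.4, 87.5 and 208 TPM on cedar, against 1099.9, 1224 and 673 TPM on cellulose (5.2996-fold lower), lost without cedar replicate 1 or 3, or cellulose replicate 1 or 2 (−2.84 to −2.34). Of 8 gene models with proteasome in their name, 2 were lower and 0 higher (median −0.69), also after cyclic loess. All 8 log2 fold changes were under 0 on the deposited scale. At equal totals 1 was lower and 0 higher, and the median was 0.23, so the direction depends on the scaling. With 1 library left out, 0 or 1 of them was lower. The lead among them, Glotr_33104, had 125, 53.7 and 109 TPM on cedar, against 644, 671 and 399.5 TPM on cellulose (5.95-fold lower), lost without cedar replicate 3, or cellulose replicate 1 or 2 (−2.76 to −2.49). Of 11 chaperones, 2 were higher and 1 lower, also after cyclic loess, and of 8 transporters for nitrogen compounds, 2 were higher and 0 lower, neither of them after cyclic loess.

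**Figure D4:**
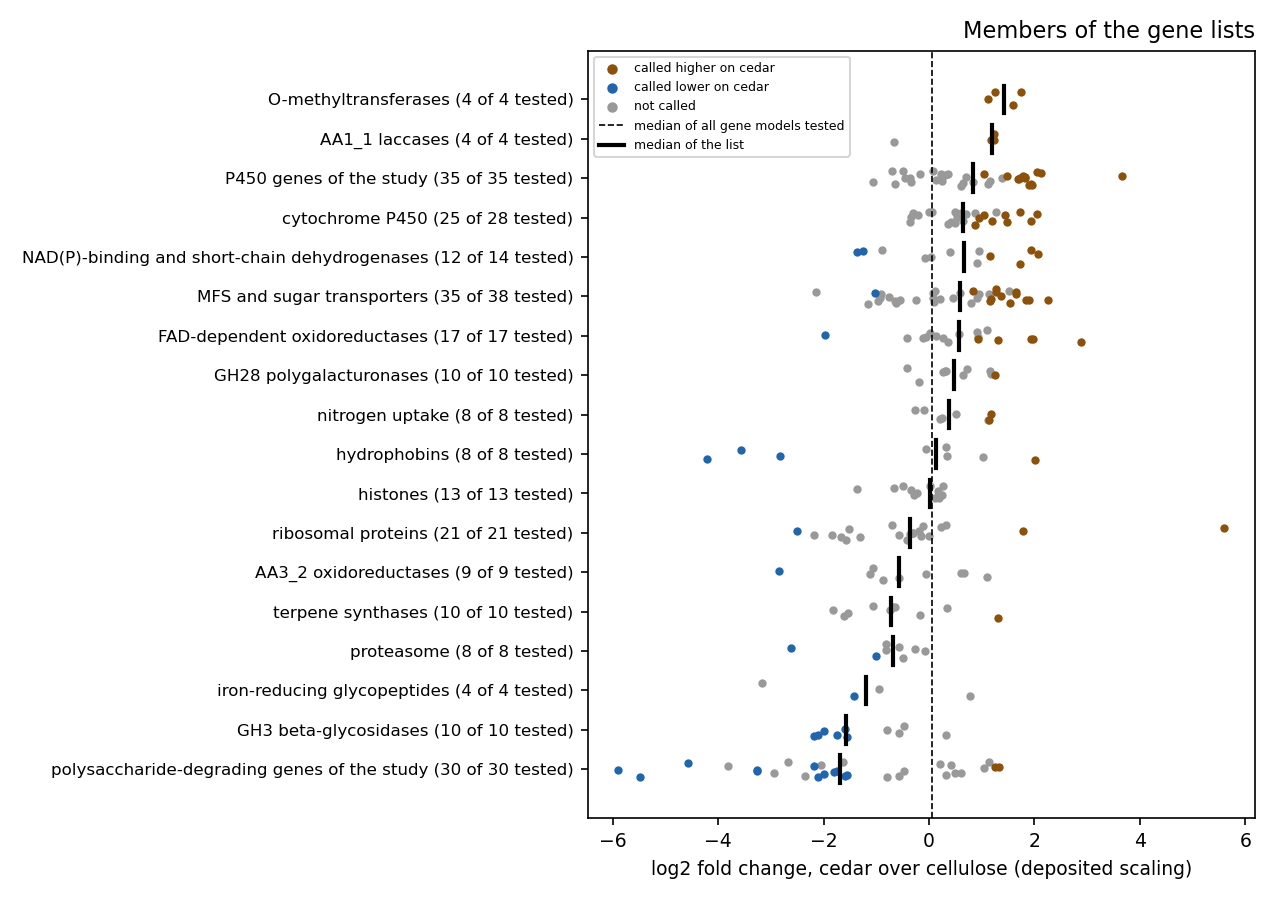
Log2 fold change of cedar over cellulose for the tested members of 18 gene lists, one point per gene, coloured by call, with the median of each list as a black bar and the median of all gene models tested (0.05) as a dashed line. P450 genes, laccases and O-methyltransferases lie to the right of it, and GH3 genes and polysaccharide-degrading genes to the left, with medians of −1.58 and −1.69.

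The 5 most abundant transcripts were not called, although 22 of the 79 gene models above 1000 TPM were called lower and 1 higher. On both substrates the 5 with the highest mean were Glotr_134131, Glotr_50888, Glotr_42001, Glotr_108693 and Glotr_130898. Glotr_134131 had 208608, 147169.7 and 217837 TPM on cedar and 377083, 508719.8 and 541751 TPM on cellulose. Glotr_50888 had 129947, 89709 and 138638 TPM on cedar and 211367, 325807 and 330313 TPM on cellulose. They are very short gene models, with spans of 274 and 200 bases in the RefSeq annotation, and together took 33.4 to 39.6% of the total TPM on cedar and 37.4 to 51.9% on cellulose. In both, every cedar library was below every cellulose library (2.49-fold and 2.42-fold lower means on cedar), without passing the test (adjusted p = 0.378 and 0.318). In Glotr_134131 the libraries spread 1.48-fold on cedar and 1.44-fold on cellulose, while its moderated standard error was 1.13 on the log2 scale. The missing calls thus do not show equal levels. They also depend on the setting, since over the alternative settings of the limma test the adjusted p went as low as 0.0045 in Glotr_134131 and 0.0082 in Glotr_50888. Glotr_130898, with 12309, 15727 and 14303 TPM on cedar and 42708, 36285 and 70876 TPM on cellulose, did not overlap either (adjusted p = 0.0336, and as low as 0.0032 over the alternative settings). Glotr_68692 was chosen after its values were seen, as an abundant transcript that was called. It was higher, at 9162, 6236 and 7438 TPM on cedar, against 2511, 1654 and 1414 TPM on cellulose (4.09-fold), and lost its call without cedar replicate 1, 2 or 3, or cellulose replicate 2 (1.92 to 2.19).

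Called genes lay side by side more often than the share of calls over all gene models. The RefSeq annotation used here names no scaffold, so a scaffold was taken to end where the start position fell. Some pairs may thus lie on different scaffolds. In the order of the RefSeq annotation, 1004 gene models called higher had a next gene that was tested, and in 179 of them (17.8%) this gene was higher as well, against 10.9% of all tested gene models with a position. For the lower ones it was 64 of 552 (11.6%), against 5.84%. There were 31 runs of at least 3 neighbours all higher and 8 runs of at least 3 all lower. One lower run holds the hydrophobin Glotr_14179 between Glotr_130577 and Glotr_139552, which had 129, 135 and 120.1 TPM on cedar, against 372, 261 and 238 TPM on cellulose (2.27-fold lower, lost without cedar replicate 1, 2 or 3, or cellulose replicate 1 or 2 (−1.22 to −0.96)). Another starts at Glotr_9220, a hybrid of polyketide synthase and peptide synthetase (pks-nrps1), with 15.5, 23.8 and 17.3 TPM on cedar, against 49.9, 55.1 and 90.1 TPM on cellulose. Next to it Glotr_122318 had 99.4, 115 and 105 TPM on cedar, against 518, 446 and 845 TPM on cellulose, and Glotr_139944 had 120.5, 146 and 124 TPM on cedar, against 334, 266 and 627 TPM on cellulose. The 3 genes were lower by 3.45, 5.66 and 3.15 times, all with cellulose replicate 3 highest. The call of Glotr_9220 was lost without cedar replicate 1 or 3, or cellulose replicate 2 (−1.83 to −1.61) and that of Glotr_139944 without cedar replicate 1, 2 or 3, or cellulose replicate 1 (−1.65 to −1.50). One more lower run ends with the MFS transporter Glotr_77119, after Glotr_61689 (3.81-fold lower, lost without cedar replicate 3 (−1.998)) and Glotr_116415 (2.03-fold lower, lost without cedar replicate 1, 2 or 3, or cellulose replicate 2 (−1.04 to −0.92)). Among the higher runs, 1 of 3 genes contains the laccase gene Glotr_127593. These runs were picked out after the calls were seen.

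The number of calls moved with the scaling and with the libraries in the fit. Between the 4 scalings that keep the middle of the distribution level (as deposited, median-of-ratios, quantile and cyclic loess), 699 to 1124 gene models were higher and 584 to 690 lower. With the same total TPM, 4893 were higher and 140 lower, and with the same total outside the 10 highest gene models, 3287 and 196. All 1124 higher calls were among those 4893, and 139 of the 140 lower calls were among the 625. Which total is nearer to the true amount of RNA per cell cannot be told from these values. With 1 library left out, 295 to 1229 were higher and 143 to 820 lower, the least without cedar replicate 3 and the most without cellulose replicate 3. The calls kept in all 6 of these fits numbered 287 higher and 137 lower.

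**Figure D5:**
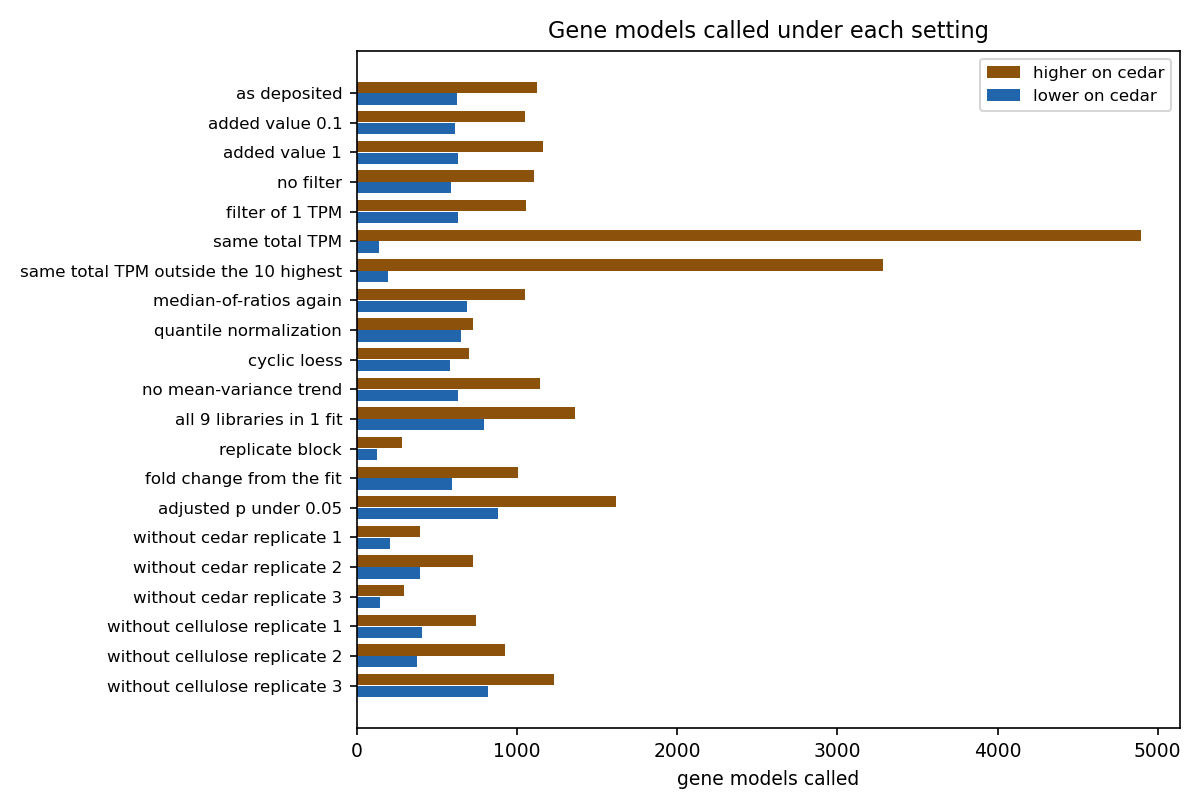
Number of gene models called higher (upper bar) and lower (lower bar) on cedar than on cellulose under each setting of the processing. Rescaling to the same total moves the counts to 4893 higher and 140 lower, against 1124 and 625 as deposited.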

How the data were processed

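The authors extracted RNA from mycelium (3 biological replicates per carbon source), trimmed the reads of stranded mRNA libraries (FaQCs), estimated abundances by pseudoalignment to the JGI gene models of genome Glotr1_1 (kallisto 0.44.0) and normalized TPM between libraries with sleuth 0.29.0. The deposited signal values are these normalized TPM, with 1 column per library, none pooled. Kallisto divides reads between near-identical genes by estimation, so members of such families are uncertain. The planned test assumed TPM that sum to a constant, and was kept for these rescaled values.

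Here limma 3.58.1 in R 4.3.3 (lmFit, then eBayes with a trend, two-sided, no covariate) was run on log2(TPM + 0.5) of the 6 libraries. Fold sizes are ratios of mean TPM, whereas log2 fold changes come from the fit and include the added 0.5, which understates low genes. No fold is given where a group was under 0.01 TPM throughout. On simulated data with 200 changed genes, the test recovered 0% at a fold of 2 (10534 genes tested), 58.5% at 4 (10542) and 83.0% at 8 (10550). In the data 2312 gene models had an adjusted p under 0.01 in the limma test, so the adjustment was stricter in the simulation. A fold of 2 also lies on the ratio threshold itself. These shares therefore do not give the recovery in the data.

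Genes named are the 10 largest rises and 10 largest falls past both thresholds without overlap, the 5 most abundant per substrate, the largest called rise and fall of a list, and members of the families described. Others are said to be chosen after their values were seen. The members and lists were chosen with earlier results of these data known. 25 lists came from the study's families and 25 from words in gene names. Names were held for 1734 gene models, and only lists with results above are described. Positions come from RefSeq (assembly Glotr1_1), matched for 11422 gene models. Alternatives were 2 other added values, 2 filters, 5 scalings, no trend, all 9 libraries in 1 fit, a replicate block, an adjusted p under 0.05, fitted in place of observed fold changes, and each library left out. Python 3.11.15 with pandas 2.3.3 and matplotlib 3.10.9 made tables and plots. The authors' own tests were not used here.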

Additional observations from a re-analysis of the deposited data

How the results depend on the processing

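With 3 libraries per substrate, calls near the threshold are uncertain, and a change of 2-fold can be missed. Against 1124 higher and 625 lower gene models, the same total TPM gave 4893 and 140 (median log2 fold change 0.92), the same total outside the 10 highest 3287 and 196 (0.65), quantile normalization 726 and 653 (−0.0091), and cyclic loess, chosen after seeing the data, 699 and 584 (−0.0136). Median-of-ratios gave a median of 0.0117 and the filter of 1 TPM 0.0164, against 0.0494. Of the 1749 calls, 64.3% were higher, against 97.2% with the same total, 94.4% with the same total outside the 10 highest, 52.6% with quantile normalization and 54.5% with cyclic loess. With 1 library left out, 295 to 1229 were higher and 143 to 820 lower. An adjusted p under 0.05 gave 1616 and 884 calls.

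Replicate numbers do not pair the libraries, since deviations of same-numbered cedar and cellulose libraries correlated at 0.19, −0.40 and −0.24. With the replicate number as a block, 285 were higher and 127 lower. Not every library correlated best with its own number.

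Of 72 called genes named above, none reversed. Each of them kept its call with an added value of 0.1 or 1, a filter of 1 TPM, median-of-ratios, no trend, an adjusted p under 0.05 and all 9 libraries in 1 fit, and 57 did with the same total, 62 with the same total outside the 10 highest, 47 each with quantile normalization and cyclic loess, 70 each with no filter and with fold changes from the fit, 34 with the block, and 36 to 69 with 1 library left out. Reversals were in genes with no call. With the same total, log2 fold changes went to 0.92 in Glotr_42001, 0.27 in Glotr_130426, 0.0256 in Glotr_101715, 0.80 in Glotr_48505 and 0.27 in Glotr_140224, and outside the 10 highest to 0.62 in Glotr_42001 and 0.50 in Glotr_48505. Quantile normalization gave 0.00 in Glotr_134131 and Glotr_50888, 0.55 in Glotr_42001, 0.0891 in Glotr_108693, 0.59 in Glotr_48505, 0.23 in Glotr_140224 and −0.0792 in Glotr_138785. Cyclic loess gave 0.0666 in Glotr_134131, 0.0787 in Glotr_50888, 1.19 in Glotr_42001, 0.21 in Glotr_101715, 0.51 in Glotr_48505, 0.10 in Glotr_140224 and −0.0083 in Glotr_138785. With 1 library left out, Glotr_42001 ranged from −0.74 to 0.36, Glotr_48505 from −1.33 to 0.65 and Glotr_104526 from −0.16 to 1.677.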

Other observations

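Several enzymes of primary metabolism that the lists above do not hold were called, and were picked out after their values were seen. They include 4 gene models with names from the synthesis of aromatic amino acids, 2 lower and 2 higher. The entry enzyme of the shikimate pathway, 3-deoxy-7-phosphoheptulonate synthase, was lower on cedar in Glotr_40881, with 10.4, 30.3 and 11.9 TPM on cedar, against 156, 97.5 and 131 TPM on cellulose (7.32-fold, lost without cedar replicate 1 or 3, or cellulose replicate 1 (−2.82 to −2.70)), and in Glotr_42575, with 18.5, 35.2 and 18.5 TPM on cedar, against 73.6, 54.3 and 54.4 TPM on cellulose (2.52-fold, lost without cedar replicate 1 or 3, or cellulose replicate 1, 2 or 3 (−1.44 to −1.22) and with the same total TPM). Glotr_39501, named 3-dehydroquinate synthase, had 7.73, 9.004 and 7.09 TPM on cedar, against 3.91, 3.41 and 3.56 TPM on cellulose (2.19-fold higher, lost without cedar replicate 1 or 3 (1.04 to 1.10)), and Glotr_30418, with the domain of prephenate dehydratase, had 12.95, 11.3 and 14.9 TPM on cedar, against 6.14, 7.06 and 5.71 TPM on cellulose (2.07-fold higher, lost without cedar replicate 1 or 3, or cellulose replicate 1 or 3 (0.89 to 0.99)). Neither of the 2 higher genes was called after cyclic loess. Cedar replicate 2 was the highest of the cedar libraries in both entry genes.

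A further 3 genes were chosen in the same way. Glotr_47111, trehalose-phosphate synthase, had 16.7, 16.1 and 13.7 TPM on cedar, against 77.98, 58.7 and 43.03 TPM on cellulose (3.86-fold lower, lost without cedar replicate 3 (−1.80)). Glotr_43542, glutamine synthetase, had 49.2, 47.4 and 46.3 TPM on cedar, against 101, 109.9 and 128 TPM on cellulose (2.37-fold lower, lost without cedar replicate 3 (−1.21)). On the higher side, Glotr_44334, with the domain of Maf1, a repressor of RNA polymerase III, had 37.03, 43.2 and 33.2 TPM on cedar, against 11.9, 8.98 and 12.6 TPM on cellulose (3.39-fold higher), and kept its call without any 1 library. Glotr_47111 and Glotr_43542 were not called with the same total TPM.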
